A study of Mus musculus with 8 samples.

Results

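The genes described here are 34 genes of the cell division cycle: 16 that act at the entry into S phase and in DNA replication, and 18 that act in G2 and mitosis. They were taken by name from a table of 49671 mouse genes counted in whole shaved back skin, and all 34 were found and passed the filter on low counts. The samples came from 8-week-old mice with the Flg genotype wt/wt (wild type, 4 libraries) or ko/ko (knockout, 4 libraries). Flg encodes profilaggrin, the precursor of filaggrin in the upper epidermis. The series asks how Flg deficiency alters gene expression of the skin as a whole. The labels give no strain, sex or design of the Flg allele, and do not say whether each library came from a separate mouse, so p-values measure the spread between these samples. Library totals lay between 18483242 and 38545957 counts. Flg itself was at 46.5 to 66.9 CPM (counts scaled to the effective library size) in wild type and at 22.3 to 27.0 CPM in knockout, with no overlap. Basal keratinocyte markers were abundant in every library, with the keratin gene Krt14 between 879 and 1303 CPM.

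A dividing cell first licenses its replication origins by loading the MCM helicase, then copies its DNA in S phase, and after G2 separates the copies in mitosis. The genes for the first steps are transcribed mainly under E2F factors, while mitotic genes are transcribed later under the MYB and FOXM1 complexes, which act through CHR elements. Many promoters of mitotic genes also hold CCAAT elements. In skin the dividing cells are chiefly basal keratinocytes, cells of growing hair follicles and sebaceous gland progenitors. Because whole skin was measured, fewer dividing cells and less RNA per dividing cell cannot be told apart.

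Promoter letters differed in count between the S phase and mitosis genes. RefSeq promoter windows (GRCm38.p6, from 250 bases before to 50 bases after the start) were found for 14 of the 16 S phase genes and 14 of the 18 mitosis genes. Ccne2, Mcm4, Ccna2, Aurkb, Kif20a and Foxm1 had no window in the table. The CHR letters TTTGAA, searched on both strands, were in windows of 10 of 14 mitosis genes and 2 of 14 S phase genes, against 20.2% of all 27025 genes with a window. CCAAT was in 13 of 14 mitosis genes and 9 of 14 S phase genes, against 41.1% of all genes. E2F-type letters (TTTCGCG or its variant TTTGGCG, with the further forms TTTCCCG and also TTTGCCG) were in 6 of 14 S phase genes and 2 of 14 mitosis genes, against 7.65% of all genes. CHR and CCAAT letters stood in the same window in 10 of 14 mitosis genes and in 7.97% of all genes. These counts describe letters, not binding. The 250 bases before the start are given for Mcm5 and Mcm6, 2 of the 5 helicase genes whose knockout values all lay above wild type. They are also given for the mitotic genes Ccnb2 and Cdk1, which had 2 of the 3 largest ratios between knockout replicates 1 and 3. The motif letters are in capitals, and neighbouring E2F-type matches on opposite strands overlap. The stretches are chr8:75109259-75109508 (plus strand), chr1:128359706-128359955 (minus), chr9:70421555-70421804 (minus) and chr10:69352913-69353162 (minus).
Mcm5: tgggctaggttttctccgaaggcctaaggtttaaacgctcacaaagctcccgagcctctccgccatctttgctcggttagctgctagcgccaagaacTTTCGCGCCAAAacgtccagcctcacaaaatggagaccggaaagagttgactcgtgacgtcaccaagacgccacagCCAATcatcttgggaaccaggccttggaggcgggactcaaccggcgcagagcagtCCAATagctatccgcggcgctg
Mcm6: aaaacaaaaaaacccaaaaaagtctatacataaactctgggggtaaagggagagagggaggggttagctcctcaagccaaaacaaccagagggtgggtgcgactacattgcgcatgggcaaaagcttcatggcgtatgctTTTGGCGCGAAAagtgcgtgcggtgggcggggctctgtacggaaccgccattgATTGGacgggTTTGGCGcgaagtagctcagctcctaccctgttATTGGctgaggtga
Ccnb2: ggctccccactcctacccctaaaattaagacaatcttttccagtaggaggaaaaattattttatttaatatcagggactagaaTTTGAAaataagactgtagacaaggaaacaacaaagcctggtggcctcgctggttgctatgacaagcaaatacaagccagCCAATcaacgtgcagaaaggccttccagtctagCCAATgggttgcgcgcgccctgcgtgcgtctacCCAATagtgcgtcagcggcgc
Cdk1: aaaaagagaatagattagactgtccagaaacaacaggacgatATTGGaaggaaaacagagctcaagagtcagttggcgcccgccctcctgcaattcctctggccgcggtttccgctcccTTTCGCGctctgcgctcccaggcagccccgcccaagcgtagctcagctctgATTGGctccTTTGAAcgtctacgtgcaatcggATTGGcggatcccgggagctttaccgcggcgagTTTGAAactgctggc
In the Mcm6 stretch 3 E2F-type matches and 2 CCAAT matches were found, and in the Mcm5 stretch 2 of each, with no CHR letters in either. The Ccnb2 stretch held 3 CCAAT matches and 1 CHR match, and the Cdk1 stretch 3 CCAAT, 2 CHR and 1 E2F-type match. The window of Mcm2, another of the 5 helicase genes, held 1 CHR, 1 CCAAT and 0 E2F-type matches. That of Mcm3 held 3 CCAAT and 2 E2F-type matches and no CHR letters.

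Per kilobase of exon, the replication clamp gene Pcna was the most abundant member at 14.4 CPM per kb over all libraries, followed by the helicase gene Mcm4 at 10.96 CPM per kb. The proliferation antigen gene Mki67 followed at 7.30, Mcm3 at 6.88 and Mcm6 at 6.78 CPM per kb. The least abundant were the licensing factor gene Cdc6 at 0.674 CPM per kb and the mitotic cyclin gene Ccnb1 at 1.04 CPM per kb. Raw counts per library were lowest for Ccne1 and Plk1, at 48 in each case, and reached 5166 for Mki67. Some reads may belong to other genes. The exons of 9 members overlap those of another gene, most of all Kif20a, with 33.2% of its exon length inside Cdc23 on the opposite strand. Pcna has the pseudogenes Pcna-ps1 and Pcna-ps2, which held 4853 counts beside 7563 for Pcna. Ccnb2-ps held 342 counts beside 1398 for Ccnb2, and Ccnb1-ps 146 beside 984 for Ccnb1.

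**Figure D1:**
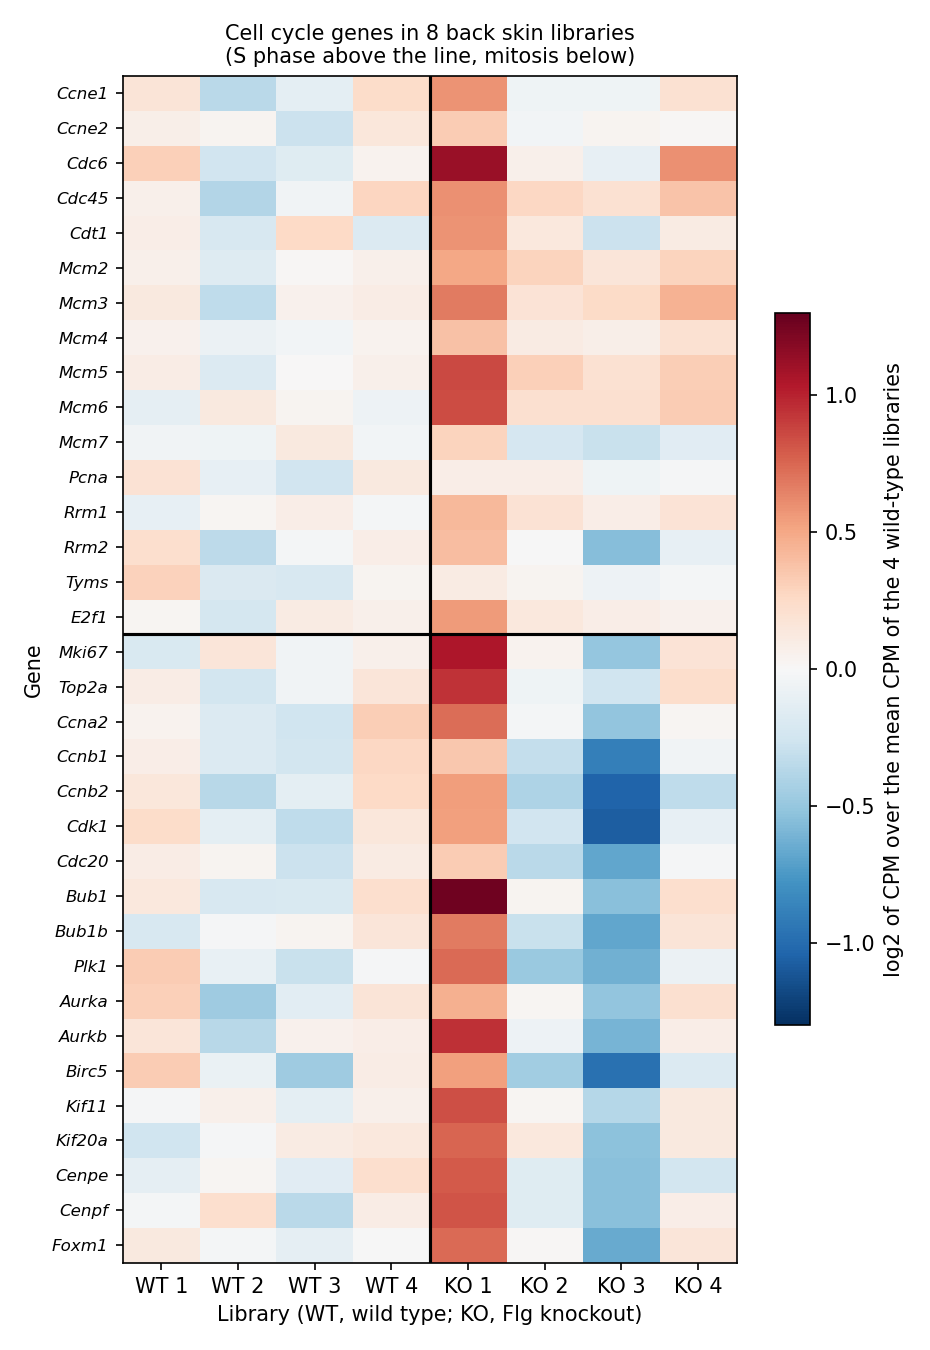
Heat map of the 34 genes (rows) in the 8 libraries (columns), as log2 of the CPM over the mean CPM of the 4 wild-type libraries, with S phase genes above the black line. All 18 mitosis genes are highest in knockout replicate 1 and lowest in knockout replicate 3.

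The first comparison was of knockout with wild type. No member was called by edgeR's quasi-likelihood test at an adjusted p under 0.05 over 19099 genes, where 1.41% of all genes were called (0.712% as higher and 0.702% as lower). DESeq2 also called 0 of 34 (5.65% of all genes), and limma voom with library quality weights 0 of 34 (13.3% of all genes). At an unadjusted edgeR p under 0.05, 7 S phase genes were higher and none lower, and 0 of 18 mitosis genes passed. Of all genes, 19.5% passed that mark, 8.64% as higher and 10.9% as lower. Median log2 fold changes were 0.21 for the S phase genes and 0.11 for the mitosis genes, against -0.02 for all genes tested. Values above 0 were seen in 14 of 16 S phase genes and 13 of 18 mitosis genes, against 46.7% of all genes.

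Among the S phase genes, 5 of the 6 MCM helicase subunits had no overlap between genotypes, though none was called. Mcm2 to Mcm7 encode the 6 subunits of the ring that unwinds DNA at the replication fork. Mcm5 was at 21.4, 17.8, 20.2 and 21.1 CPM in wild-type replicates 1 to 4 and at 36.6, 25.0, 23.2 and 25.2 CPM in knockout replicates 1 to 4. Mcm6 was at 25.0, 29.5, 27.8 and 25.8 CPM in wild type and at 48.5, 31.2, 31.3 and 33.9 CPM in knockout. In both genes every knockout library lay above every wild-type library, and knockout replicate 1 lay far above the other 3. The log2 fold change was 0.45 ± 0.14 (SE, n = 4 per group) for Mcm5 and 0.43 ± 0.14 for Mcm6, with edgeR adjusted p-values of 0.136 and 0.150. Without knockout replicate 1 the log2 fold changes were 0.28 for Mcm5 and 0.25 for Mcm6 (edgeR adjusted p = 0.254 and 0.277).

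Mcm3 was at 24.3, 17.7, 23.1 and 23.8 CPM in wild type and at 35.5, 25.2, 26.4 and 30.4 CPM in knockout. Mcm2 was at 22.2, 18.9, 21.4 and 22.2 CPM in wild type and at 30.1, 25.96, 23.7 and 25.96 CPM in knockout. Mcm4 was at 38.2, 34.8, 35.9 and 37.8 CPM in wild type and at 47.8, 39.5, 38.7 and 42.0 CPM in knockout. These 3 genes did not overlap between genotypes either, with log2 fold changes of 0.40 ± 0.14, 0.32 ± 0.10 and 0.20 ± 0.09 (SE). None passed the test (edgeR adjusted p = 0.152, 0.133 and 0.255). So in 5 of 16 S phase genes, all of them MCM genes, the lowest knockout library lay above the highest wild-type library, against 5.57% of all genes. The reverse was seen in 0 of 34 members, against 5.95% of all genes. Mcm7 was the exception among the subunits, at 23.6, 23.4, 26.6 and 23.7 CPM in wild type and at 29.7, 20.9, 19.9 and 21.9 CPM in knockout. Its log2 fold change was -0.07 ± 0.13 (SE, edgeR adjusted p = 0.793). Its exons overlap 4 other genes, most of all Ap4m1, with 7.3% of the exon length. Summed over the 6 subunits, the level was 142 to 155 CPM in wild type and 163 to 228 CPM in knockout.

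**Figure D2:**
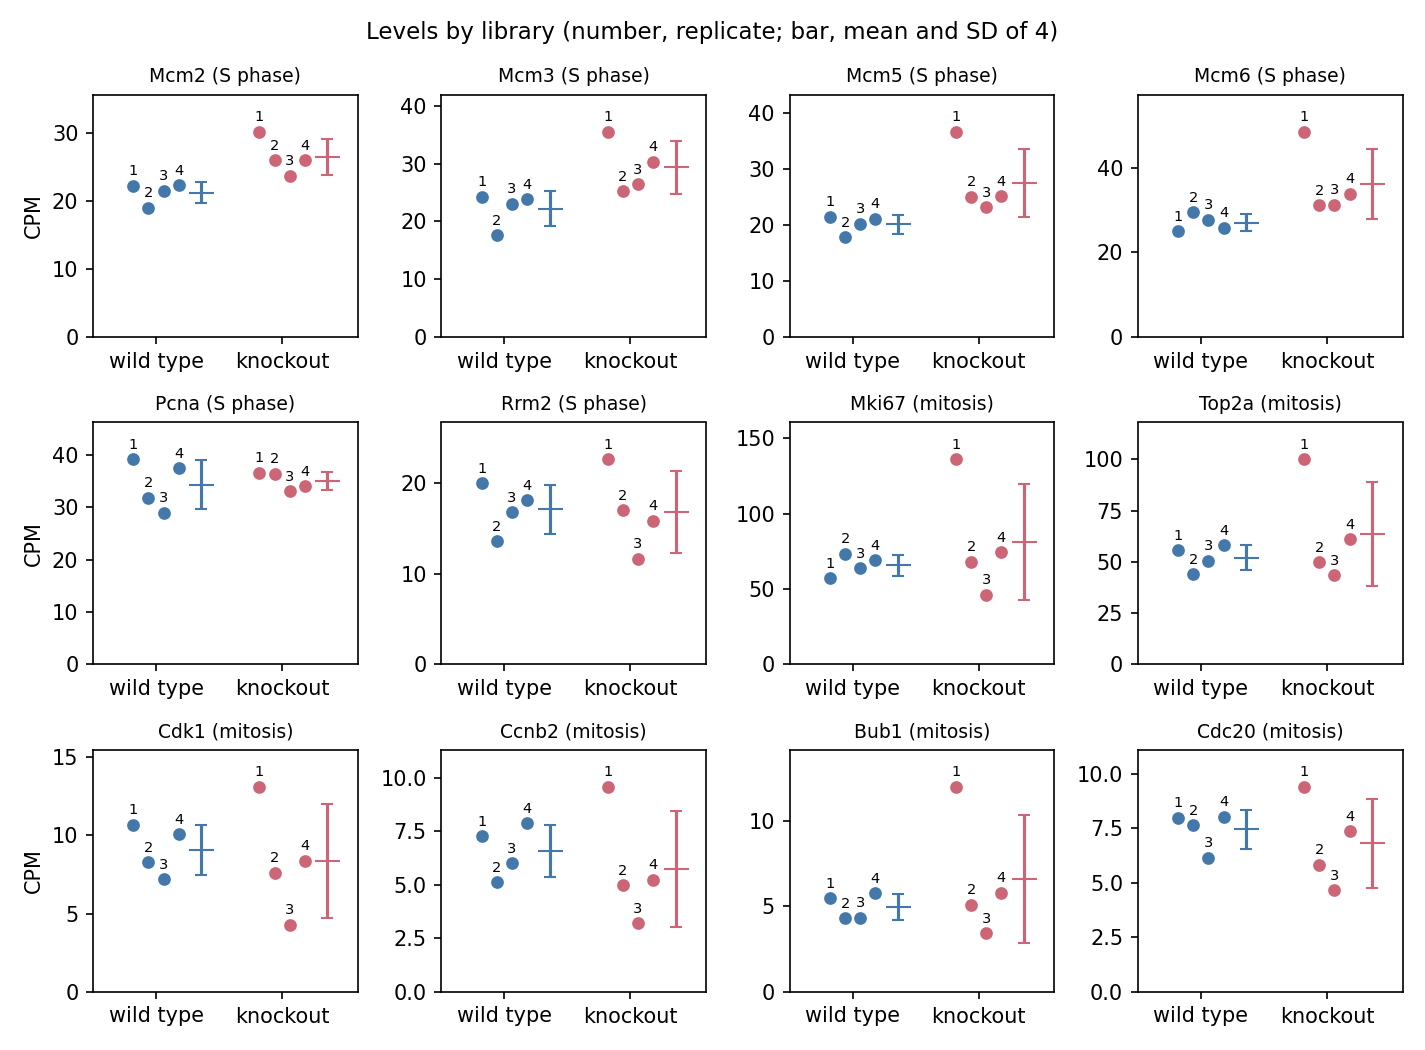
CPM of 12 of the genes in each library (points numbered by replicate) with the mean and SD of 4 libraries beside them, each axis starting at 0. The Mcm2, Mcm3, Mcm5 and Mcm6 points of knockout lie above all wild-type points, while the mitosis genes spread to both sides of wild type.

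Among the genes that start replication, Cdc6 and Cdt1 spread more within knockout than any MCM gene. Their SD of log2 CPM in knockout was 0.55 and 0.35, against at most 0.30 (Mcm6). Counts of Cdc6 were low, at 57 to 241 per library. Cdc6, which loads the helicase onto origins, had the largest fold change of the members, with 3.61, 2.45, 2.61 and 3.01 CPM in wild type and 6.34, 3.05, 2.71 and 4.41 CPM in knockout. The genotypes overlapped, and the log2 fold change was 0.51 ± 0.26 (SE, edgeR adjusted p = 0.317). Cdt1, the partner of Cdc6 in licensing, was at 10.02, 8.14, 11.2 and 8.31 CPM in wild type and 14.2, 10.4, 7.79 and 10.1 CPM in knockout, also overlapping (0.18 ± 0.18). Cdc45, which activates the loaded helicase, was at 6.47, 4.74, 5.98 and 7.52 CPM in wild type and 9.32, 7.44, 7.08 and 8.01 CPM in knockout. Its log2 fold change was 0.37 ± 0.16 (SE, edgeR adjusted p = 0.240). The cyclin E genes Ccne1 and Ccne2, which drive entry into S phase, stood at 0.20 ± 0.20 and 0.10 ± 0.13, and the transcription factor gene E2f1 at 0.23 ± 0.14.

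Genes of nucleotide supply and of the replication clamp came next, with Rrm2, Pcna and Tyms close to 0 and Rrm1 above it. Rrm1, the large subunit of ribonucleotide reductase, was at 48.5, 53.2, 55.4 and 51.3 CPM in wild type and 69.5, 59.4, 55.2 and 58.9 CPM in knockout, with a log2 fold change of 0.22 ± 0.09 (SE, edgeR adjusted p = 0.202). The small subunit gene Rrm2 was at 19.9, 13.5, 16.8 and 18.1 CPM in wild type and 22.6, 17.0, 11.6 and 15.8 CPM in knockout, with a log2 fold change of -0.03 ± 0.19. Rrm1 overlapped between genotypes through knockout replicate 3 alone, and Rrm2 spread to both sides of wild type. Pcna stood at 0.03 ± 0.11 and the thymidylate synthase gene Tyms at 0.01 ± 0.13. The 95% intervals of their fold change were 0.866 to 1.20 for Pcna and 0.830 to 1.23 for Tyms.

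Exon length moved with these fold changes. Across the 52 tested S phase members and other replication genes, the log2 fold change had a Spearman correlation of 0.436 with exon length. The value was 0.381 over the 67 mitosis genes and 0.225 over all 19099 genes. Genes are not independent replicates, and the part of length in the MCM values was not tested. Exon lengths were 3589 to 6956 bases in Mcm2 to Mcm6 and 2252 to 11012 bases in the other 11 S phase genes.

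**Figure D3:**
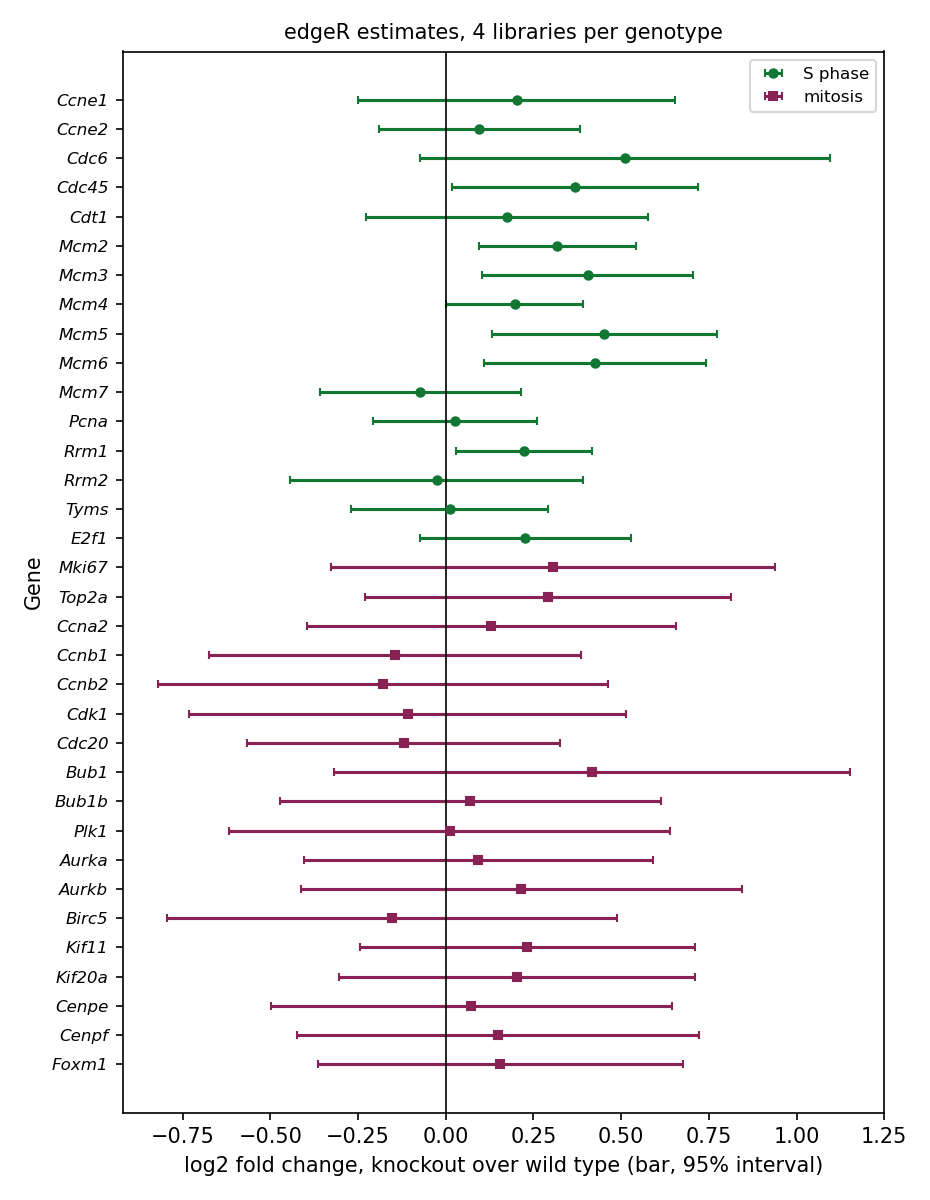
Log2 fold change of each gene, knockout over wild type, with its 95% interval from the edgeR fit over 4 libraries per genotype (circles, S phase; squares, mitosis). The intervals of mitosis genes are wider and all include 0, while those of 7 S phase genes lie above 0 before adjustment.

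The mitosis genes did not differ between genotypes beyond their spread, and that spread was much wider in knockout. Mki67, a marker of cycling cells, was at 57.2, 73.4, 63.6 and 68.9 CPM in wild-type replicates 1 to 4 and at 136, 68.0, 46.3 and 74.3 CPM in knockout replicates 1 to 4. Top2a, the topoisomerase that untangles sister chromatids, was at 55.8, 44.0, 50.5 and 58.0 CPM in wild type and at 99.9, 49.9, 43.4 and 61.0 CPM in knockout. In both genes knockout replicate 1 exceeded all wild-type libraries and knockout replicate 3 lay below all of them. The log2 fold changes were 0.31 ± 0.28 for Mki67 and 0.29 ± 0.23 for Top2a (SE, edgeR adjusted p = 0.582 and 0.522).

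Cyclins and their kinase followed the same order of knockout libraries, while the order of the wild-type libraries differed between genes. Cdk1, the kinase that drives entry into mitosis, was at 10.7, 8.26, 7.20 and 10.1 CPM in wild type and at 13.1, 7.60, 4.29 and 8.38 CPM in knockout. Its partner cyclin Ccnb2 was at 7.28, 5.14, 6.02 and 7.88 CPM in wild type and at 9.58, 4.98, 3.21 and 5.24 CPM in knockout. Ccnb1, the other cyclin B, was at 4.94, 4.11, 3.92 and 5.58 CPM in wild type and at 5.92, 3.75, 2.50 and 4.49 CPM in knockout. In these genes knockout replicates 2 to 4 lay within or below the range of wild type and replicate 1 above it. Ccna2, which acts in S phase and G2, was at 13.6, 11.7, 11.04 and 16.5 CPM in wild type and at 21.9, 13.0, 9.29 and 13.4 CPM in knockout. The log2 fold changes were -0.11 ± 0.28 for Cdk1, -0.18 ± 0.29 for Ccnb2, -0.14 ± 0.24 for Ccnb1 and 0.13 ± 0.24 for Ccna2 (SE).

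Checkpoint and exit genes were alike. Bub1, a kinase of the spindle checkpoint, had the widest range: 5.46, 4.31, 4.34 and 5.78 CPM in wild type and 11.97, 5.09, 3.42 and 5.80 CPM in knockout. Bub1b, its partner in the checkpoint, was at 8.35, 9.57, 9.90 and 10.8 CPM in wild type and at 15.4, 7.92, 6.04 and 10.8 CPM in knockout. Cdc20, which activates the complex that ends mitosis, was at 7.97, 7.63, 6.15 and 8.03 CPM in wild type and at 9.39, 5.83, 4.67 and 7.37 CPM in knockout. The narrowest of the 3 was Cdc20, with a ratio of 2.01 between knockout replicates 1 and 3, against 3.51 for Bub1 and 2.55 for Bub1b. Log2 fold changes were 0.42 ± 0.33 for Bub1, 0.07 ± 0.25 for Bub1b and -0.12 ± 0.20 for Cdc20 (SE), with edgeR adjusted p-values of 0.516, 0.900 and 0.778.

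The mitotic kinases, motors and kinetochore proteins gave the same picture. The kinase genes Plk1, Aurka and Aurkb, which control centrosomes and chromosome segregation, were at 2.95 to 4.51, 3.91 to 6.70 and 4.94 to 7.05 CPM in wild type. In knockout they spanned 2.33 to 6.0, 3.79 to 7.47 and 4.17 to 12.2 CPM, in each case from replicate 3 to replicate 1. Birc5, the survivin subunit of the Aurora B complex, spanned 4.21 to 7.31 CPM in wild type and 2.96 to 8.37 CPM in knockout. The spindle motor genes Kif11 and Kif20a spanned 12.1 to 13.8 and 5.92 to 7.84 CPM in wild type, and 10.2 to 23.6 and 4.92 to 11.97 CPM in knockout. The kinetochore genes Cenpe and Cenpf spanned 10.8 to 14.0 and 16.2 to 24.1 CPM in wild type, and 8.25 to 21.0 and 14.2 to 36.5 CPM in knockout. Foxm1, a transcription factor of mitotic genes, was at 9.68, 8.70, 8.17 and 8.79 CPM in wild type and at 14.8, 8.94, 5.62 and 9.84 CPM in knockout. The adjusted p-values of the 18 mitosis genes in edgeR lay between 0.516 and 0.989.

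The libraries were then described one by one. Knockout replicate 1 was the highest of the 8 libraries in all 18 mitosis genes and in 14 of 16 S phase genes, a place it held in 10.8% of all genes tested. The exceptions were Pcna and Tyms, both highest in wild-type replicate 1. Knockout replicate 3 was the lowest of the 8 in all 18 mitosis genes but in only 3 S phase genes (Cdt1, Mcm7 and Rrm2), against 10.4% of all genes. The lowest library for 8 of 16 S phase genes was wild-type replicate 2, a place it held in 16.8% of all genes. The members are transcribed together in cycling cells, so these counts are not independent observations.

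**Figure D4:**
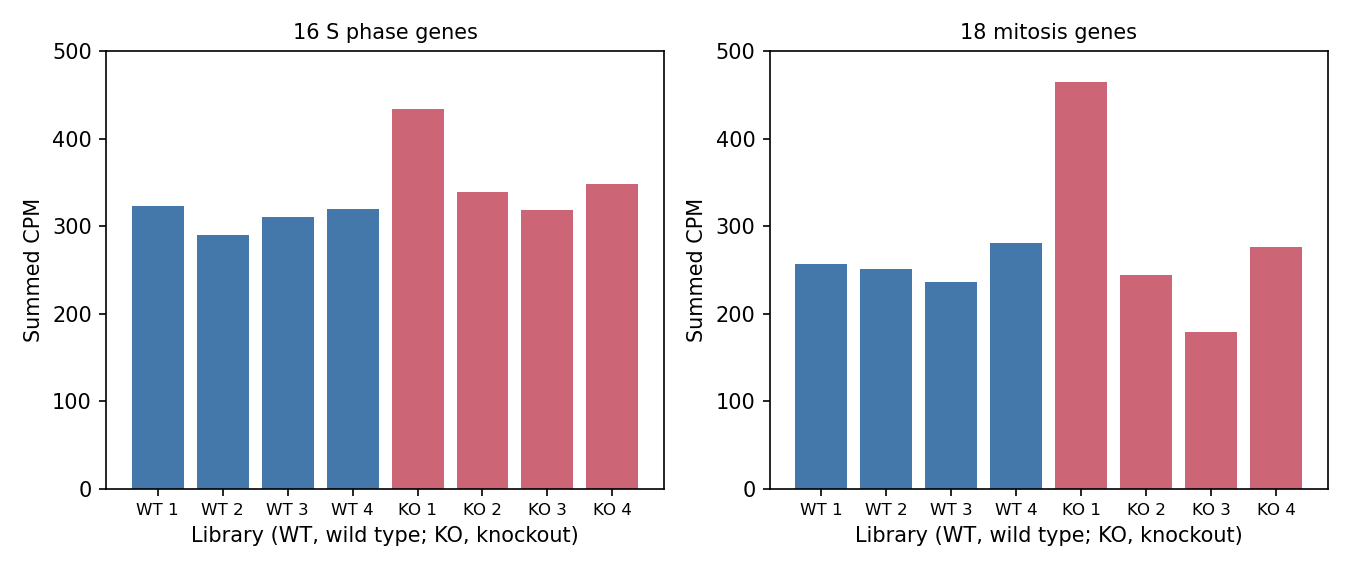
Summed CPM of the 16 S phase genes (left) and the 18 mitosis genes (right) in each library, with both axes starting at 0. The mitosis sum runs from 180 CPM in knockout replicate 3 to 465 CPM in knockout replicate 1, while the S phase sum of replicate 3, at 318 CPM, lies within the 290 to 324 CPM of wild type.

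Summed CPM of the mitosis genes was 257, 252, 236 and 281 in wild-type replicates 1 to 4 and 465, 244, 180 and 276 in knockout replicates 1 to 4. The S phase sum was 324, 290, 310 and 320 CPM in wild type and 434, 340, 318 and 349 CPM in knockout. The mitosis sum of knockout thus lay on both sides of wild type, at 291 ± 123 against 256 ± 18.4 CPM (SD, n = 4). The S phase sum overlapped through knockout replicate 3 alone, at 360 ± 51.0 against 311 ± 15.3 CPM (SD, n = 4). The ratio of the mitosis sum to the S phase sum was 0.761 to 0.877 in wild type, 1.07 in knockout replicate 1 and 0.564 in knockout replicate 3. Knockout replicates 2 and 4, at 0.718 and 0.793, were closer to wild type.

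Spread within a genotype was larger in knockout for all 18 mitosis genes and for 12 of 16 S phase genes, against 26.1% of all genes. The median SD of log2 CPM over 4 libraries was 0.22 in wild type and 0.57 in knockout for the mitosis genes. It was 0.20 and 0.22 for the S phase genes, and 0.22 and 0.14 for all genes tested. Between knockout replicates 1 and 3 the mitosis genes differed by a median factor of 2.56, with a range from 1.97 (Aurka) to 3.51 (Bub1). The S phase genes differed by a median factor of 1.36, from 1.10 (Pcna) to 2.34 (Cdc6), and all genes tested by 0.995. Within the S phase group Cdc6, Rrm2 (1.94) and Cdt1 (1.82) had the largest ratios.

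Leaving out single libraries moved the median of the mitosis genes across 0, but not that of the S phase genes. Without knockout replicate 1 the count of mitosis genes above 0 went from 13 to 0 of 18, with a median of -0.17. Without knockout replicate 3 it was 18 of 18, with a median of 0.27. The S phase median stayed between 0.11 (without knockout replicate 1) and 0.27 (without knockout replicate 3). Without both, an alternative added after seeing the data, the medians were 0.16 for S phase and 0.01 for mitosis. With voom quality weights the mitosis median was -0.02, and with the adipocyte marker mean as a covariate -0.12. No member was called in any of these fits.

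**Figure D5:**
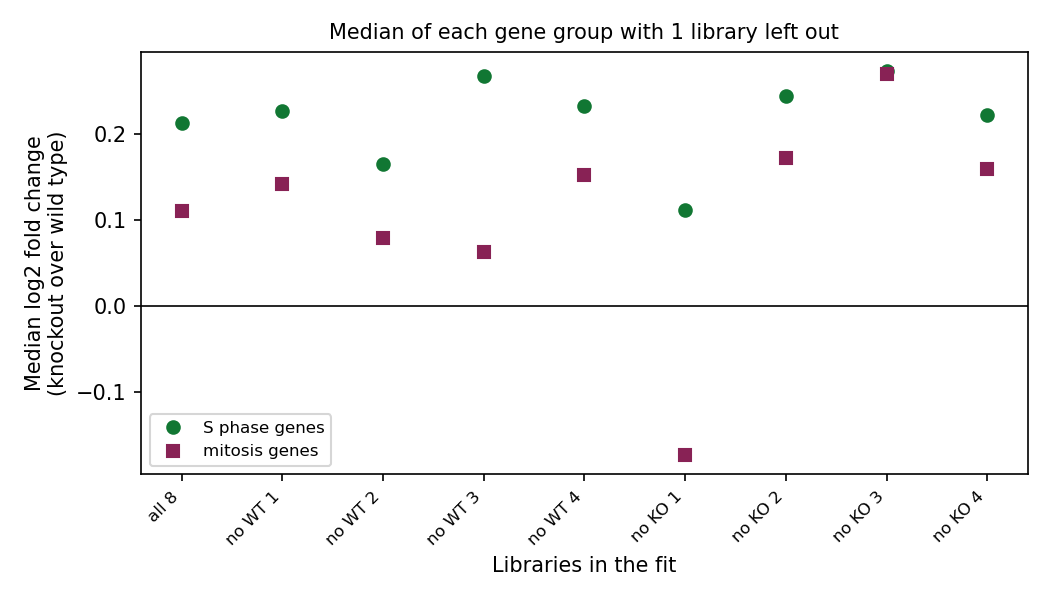
Median log2 fold change (knockout over wild type) of the S phase genes (circles) and the mitosis genes (squares) with all 8 libraries and with each library left out. The S phase median stays above 0, while the mitosis median falls to -0.17 without knockout replicate 1 and rises to 0.27 without knockout replicate 3.

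Markers of skin cell types were set beside these library differences. The basal keratinocyte list (10 of 10 markers tested, 0 called) summed to 6890 to 7418 CPM in wild type and 6196 to 7167 CPM in knockout. Its sum was 1.16 times higher in knockout replicate 1 than in replicate 3, against 2.59 times for the mitosis sum. Per 1000 CPM of basal markers the mitosis sum was 31.8 to 40.1 CPM in wild type, 64.9 in knockout replicate 1 and 29.0 in knockout replicate 3, a ratio of 2.24. The suprabasal list (8 of 8 tested, 0 called) summed to 9012 to 9660 CPM in wild type and 7949 to 9578 CPM in knockout, and differed 1.08 times between those libraries.

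Growing hair holds many dividing cells. Of 22 markers of the hair matrix, inner root sheath and hair shaft, 12 passed the filter and 0 were called. The list summed to 225 to 353 CPM in wild type and 241 to 338 CPM in knockout, mostly from Gata3 (184 to 280 CPM), which other skin cells also express. Krt72, Krt73, Krt34, Krt81 and Krt86 were at 0 in at least 1 library. The shaft keratin genes Krt31 and Krt33a were at most at 0.607 CPM in any library, and Krt35 at most at 1.42 CPM. Knockout replicate 4 stood apart in part of the inner root sheath keratins, with Krt71 at 23.0 CPM (0.268 to 0.910 in the other 7 libraries) and Krt25 at 13.6 CPM (0.0416 to 0.317). Krt27 (6.81 CPM), Krt73 (2.095 CPM) and the shaft keratin gene Krt35 (1.42 CPM) were also highest there. Of the markers that are not keratins, Tchh was at 26.4 CPM there (6.64 to 13.6 in the other 7 libraries). Padi3 (1.27 CPM) and Shh (0.786 CPM) were highest there too. Msx2, Hoxc13, Lef1, Dlx3, Gata3 and S100a3 lay within the range of the other 7 libraries. Krt28, at 2.47 CPM, lay within the 1.19 to 2.58 CPM of the other 7 libraries, and Krt72, at 0.0374 CPM, within 0 to 0.665 CPM. Knockout replicate 4 was neither highest nor lowest in any member. In knockout replicate 1, where the mitosis genes were highest, Krt71 was at 0.553 CPM and Krt25 at 0.158 CPM.

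The other lists moved as follows, where edgeR called 0.702% of all genes as lower and 0.712% as higher. The melanocyte list (7 tested, 1 called as lower) summed to 118 to 179 CPM in wild type and 103 to 186 CPM in knockout, and was 1.59 times higher in knockout replicate 1 than in replicate 3. The T cell and natural killer cell list (12 tested, 2 called as lower) spanned 76.0 to 87.3 CPM in wild type and 37.4 to 56.3 CPM in knockout, with its lowest sum in knockout replicate 1. White adipocyte markers (15 tested, 0 called) spanned 4596 to 8236 CPM and 6573 to 8390 CPM, and the bulge list (10 tested, 1 called as lower) 4967 to 6129 CPM and 4159 to 4479 CPM. Sebaceous markers (10 tested, 0 called) spanned 723 to 1554 CPM in wild type and 757 to 1233 CPM in knockout, with knockout replicate 3 above replicate 1. Macrophage and dendritic markers (9 tested, 1 called as higher) spanned 2438 to 3927 CPM and 2520 to 3703 CPM. Endothelial (7 tested), fibroblast (7 tested) and skeletal muscle markers (6 of 7 tested) had 0 called, and their sums were lower in knockout replicate 1 than in replicate 3. B cell markers (2 of 7 tested, 0 called) summed to at most 5.37 CPM, with Ms4a1 and Fcmr at 0 in at least 1 library. Knockout replicate 1 was also the deepest library, at 38545957 counts against 24686151 in replicate 3. The part of cell type amounts and of depth in the spread of the mitosis genes was not tested.

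Other genes of replication and mitosis were read from the same fit. Of 37 other replication genes 36 were tested and 0 were called, 24 of them lay above 0, and the median log2 fold change was 0.12. At an unadjusted edgeR p under 0.05, 6 were higher and 1 lower, against 8.64% and 10.9% of all genes. In 7 all knockout libraries lay above wild type and in 1 (Orc6, named after its values were seen) all lay below, against 5.57% and 5.95% of all genes. Pole, the catalytic subunit of the leading strand polymerase, was at 6.56, 7.16, 9.14 and 6.85 CPM in wild type and at 16.3, 11.9, 10.5 and 11.3 CPM in knockout. Its log2 fold change was 0.76 ± 0.16 (SE, edgeR adjusted p = 0.0523). Pold1, the catalytic subunit of the lagging strand polymerase, was at 20.9, 17.1, 20.7 and 17.2 CPM in wild type and at 30.1, 25.4, 21.5 and 27.0 CPM in knockout (0.45 ± 0.12, edgeR adjusted p = 0.092). Both were called by DESeq2 (adjusted p = 0.00151 and 0.0188) and by voom (adjusted p = 0.0128 and 0.0265). DESeq2 called 4 of these genes in all, higher in knockout, where it called 586 of 20083 genes as higher (5.65% in either direction). Voom called 3, also higher, where it called 1174 of 19099 genes as higher (13.3% in either direction).

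Of 50 other mitosis genes 49 were tested and 0 were called by edgeR. Their median log2 fold change was 0.05, with 31 above 0. At an unadjusted p under 0.05, none was higher and 1 was lower, against 8.64% and 10.9% of all genes. That gene was Cdc25b, a phosphatase that activates CDK1, at 80.7, 69.3, 73.7 and 76.8 CPM in wild type and at 61.2, 58.5, 49.6 and 58.9 CPM in knockout. Its log2 fold change was -0.40 ± 0.09 (SE, edgeR adjusted p = 0.0512), and DESeq2 and voom called it as lower (adjusted p = 0.0074 and 0.0109). Every knockout library lay below wild type in Cdc25b, and within knockout its level was highest in replicate 1 and lowest in replicate 3. The spindle midzone gene Prc1 stood at 0.53 ± 0.24 (edgeR adjusted p = 0.258). Knockout replicate 1 was the highest library in 44 of 49 of these genes, and knockout replicate 3 the lowest in 38 of 49. Spread was larger in knockout in 47 of 49.

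In the genes of G1 control, knockout replicate 1 was highest in 8 of 24. Of 24 G1 cyclins, kinases, pocket proteins and their partners 0 were called by edgeR, their median log2 fold change was 0.03, and 3 were higher and 2 lower at an unadjusted p under 0.05, against 8.64% and 10.9% of all genes. Rbl1, the pocket protein p107, stood at 0.24 ± 0.09 (SE, edgeR adjusted p = 0.182), and Cdk6, a partner of D cyclins, at -0.18 ± 0.07 (edgeR adjusted p = 0.204). DESeq2 called 0 of them and voom 1 as higher, Ccnd1, named after its value was seen (log2 fold change 0.29 in edgeR). Voom called 1174 of 19099 genes as higher (13.3% in either direction).

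Of 15 genes that restrain the cycle 14 were tested, and 2 fell in knockout by edgeR, where 0.702% of all genes were called as lower. Cdkn1c, the CDK inhibitor p57, was at 21.1, 12.3, 27.1 and 20.9 CPM in wild type and at 8.32, 8.62, 9.83 and 8.27 CPM in knockout. Gas1, a membrane protein first found in growth-arrested cells, was at 227, 142, 201 and 210 CPM in wild type and at 121, 115, 123 and 112 CPM in knockout. Neither gene overlapped between genotypes. The log2 fold changes were -1.22 ± 0.20 for Cdkn1c and -0.73 ± 0.13 for Gas1 (SE, edgeR adjusted p = 0.0266 and 0.0284). The list had 3 of 14 genes above 0, against 46.7% of all genes, and a median of -0.14. At an unadjusted p under 0.05, 5 of its genes were lower and 0 higher, against 10.9% and 8.64% of all genes. DESeq2 called 3 of its genes, all lower, where it called 549 of 20083 genes as lower (5.65% in either direction). Voom called 5, all lower, where it called 1361 of 19099 genes as lower (13.3% in either direction). Cdkn1b, the inhibitor p27, was at 174, 145, 142 and 140 CPM in knockout against 176 to 209 CPM in wild type (-0.37 ± 0.09, edgeR adjusted p = 0.0733). DESeq2 and voom called Cdkn1b as lower (adjusted p = 0.0232 and 0.0117). The calls of both genes ended without wild-type replicate 1 or 4, without knockout replicate 1, 2 or 4, and with the adipocyte covariate. That of Gas1 also ended without knockout replicate 3. In those single-library fits the edgeR adjusted p was 0.0671 to 0.107 for Cdkn1c and 0.0585 to 0.119 for Gas1, and with the covariate 0.0710 and 0.171. The log2 fold changes in the same single-library fits were -1.21 to -1.19 for Cdkn1c and -0.75 to -0.65 for Gas1, and with the covariate -1.61 and -0.83. Without knockout replicates 1 and 3 together it was 0.171 for Cdkn1c and 0.184 for Gas1, with log2 fold changes of -1.25 and -0.75.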

How the data were processed

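The submitters' processing notes name GSNAP, featureCounts 1.6.2 and the mm10 genome. The labels name a SMART protocol in one place and a strand-specific kit in another, and neither states the strand setting or the treatment of multi-mapped reads. The deposited values are raw read counts, with no normalization, for 49671 genes and 92 spike-in sequences, which were left out. Symbols were found for 49326 gene identifiers. The authors' gene length column gave exon lengths.

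Genes were filtered with filterByExpr (19099 kept), scaled by TMM and tested with edgeR 4.0.16 (robust quasi-likelihood, genotype as the only term, R 4.3.3), with Benjamini-Hochberg adjustment over all genes. SE and 95% intervals were derived from the F statistic. CPM use the TMM-scaled sizes, and log2 CPM a prior count of 2. The fit was tested on simulated data, where 71.6% of 2-fold changes were recovered and 2.3% of calls were false. The largest fold change of a member was 1.425 (Cdc6), below that size. The simulation gave each gene the same dispersion in both genotypes. Its recovery share therefore does not carry over to the mitosis genes, whose spread was wider in knockout. Alternatives were DESeq2 1.42.0, limma 3.58.1 (voom with quality weights), other scalings and filters, 2 marker covariates and each library left out. The members and lists were chosen with earlier results of these data known. The genes named are the 34 members, Flg, and from each other cell cycle list the called genes or, with none called, the 2 with the smallest p. Cdkn1b, Orc6, Ccnd1, Gata3, the named keratins and the other named hair markers were chosen after their values were seen. Of the marker lists, called markers are given as counts. Replicates were numbered in sample order, so a number pairs nothing.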

Additional observations from a re-analysis of the deposited data

Results flagged for a closer look

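Within a genotype, 5 of 68 sets of 4 libraries (34 genes in 2 genotypes) had 1 library far from the other 3 by Dixon's criterion, which chance meets in about 1 of 20 sets. In 4 of them the library was knockout replicate 1: Ccne2 was at 12.9 CPM against 10.01 to 10.5 CPM in the other knockout libraries, Mcm5 at 36.6 against 23.2 to 25.2 CPM, Mcm6 at 48.5 against 31.2 to 33.9 CPM, and E2f1 at 16.9 against 12.04 to 12.7 CPM. The fifth was Mcm7 in wild type, where replicate 3 was at 26.6 CPM against 23.4 to 23.7 CPM in the other 3 libraries. No mitosis gene met the criterion.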

How the results depend on the processing

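No paired analysis was possible because the labels give no replicate numbers. Over 18 alternatives, none of the 612 member values was called, and the lowest adjusted p was 0.0589 (Mcm2 with DESeq2). The fold change of a member changed sign in 53 of the 612, in 13 of 18 mitosis genes without knockout replicate 1. The count of mitosis genes above 0 was 8 with voom, 6 with the adipocyte covariate, and between 0 and 18 with single libraries left out. The S phase median stayed above 0 throughout. The genes called higher in knockout and the genes called lower in knockout numbered 136 and 134 in the main comparison, 586 and 549 with DESeq2, 1174 and 1361 with voom, 234 and 268 with no filter, 0 and 0 with the adipocyte covariate, and 24 and 9 without knockout replicates 1 and 3 together, which was added after seeing the data. With single libraries left out, genes called higher in knockout numbered 9 (without knockout replicate 2) to 679 (without wild-type replicate 3), and genes called lower in knockout 2 to 646 with the same libraries left out. Of the other replication genes 4 were called with DESeq2, 3 with voom, 1 with no filter, 1 with the basal keratinocyte covariate, and 0 to 2 with single libraries left out. Of the other mitosis genes 1 was called with upper-quartile factors, total counts only, DESeq2, voom, no filter and the filter of 1 CPM in 4 libraries, and 0 to 1 with single libraries left out. Of the G1 genes 1 was called with voom. Of the inhibitors 5 were called with voom, 0 with the adipocyte covariate, 0 without knockout replicates 1 and 3 together, and 0 to 4 with single libraries left out. The cause was not tested in any of these cases. Counts ran from 48 to 5166 per gene and library, and the low ones limit the precision of single values.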
